A study of Homo sapiens with 64 samples.

Results

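Metallothioneins are small cysteine-rich proteins that bind zinc and copper, and the genes described here are those of the human metallothionein 1 and 2 family on chromosome 16: MT2A, MT1A, MT1E, MT1F, MT1G, MT1H and MT1X. They were chosen by gene symbol, with their values after DMSO, after OTX015 and in untreated lines already known. Of these 7 genes, 6 had a probe on the array, out of 20046 genes with a probe, and all 6 passed the filter on dim probes. MT1A was not analysed here. The arrays measured total RNA of human lymphoma lines grown in culture. SUDHL2 and SUDHL6, both lines of diffuse large B-cell lymphoma, were profiled not treated, after DMSO for 1, 2 or 12 h, and after OTX015 for 1, 2 or 12 h. That gives 14 groups of 3 arrays, and 22 untreated lymphoma lines had 1 array each. OTX015 is a small molecule that blocks the acetyl-lysine pocket of the BET bromodomain proteins, which bind acetylated histones, and DMSO is the solvent used as its vehicle. The labels give no dose. The untreated arrays carry no hour, so DMSO against not treated also compares handling and time. Whether replicate arrays came from separate cultures is unstated, so errors and p-values reflect the spread among the arrays of a group, which may be technical.

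Metallothionein genes are switched on by zinc and other metals through the transcription factor MTF1, which senses free zinc and binds short metal response elements in their promoters. MTF1 also drives SLC30A1, the exporter that pumps zinc out of the cell. Oxidative stress, glucocorticoids and some cytokines raise metallothionein RNA too, partly because oxidants release zinc from proteins. The encoded proteins buffer zinc and copper and scavenge reactive oxygen species.

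The members lie side by side on chromosome 16, and RefSeq's annotation of GRCh38.p14 places all 7 between 56608584 and 56684196, a stretch of 75613 bases. MT2A is at 56608584 to 56609497 and MT1X, at the other end, is at 56682470 to 56684196. The array files name no genome build, so these positions come only from that annotation. Promoter sequence from RefSeq was at hand for 3 of the 7 members, MT2A, MT1H and MT1X, and it is shown, with that of SLC30A1, because MTF1 is known to act through such elements and the levels of these genes are set side by side here. Each line gives the 250 bases before the annotated start, 5′ to 3′ on the gene's own strand, with the metal response element cores TGCACNC and TGCGCNC, or their reverse complements, in capitals. The windows are chr16:56608334-56608583 for MT2A, chr16:56669564-56669813 for MT1H and chr16:56682220-56682469 for MT1X, all on the forward strand, and chr1:211579162-211579411 on the reverse strand for SLC30A1.
MT2A: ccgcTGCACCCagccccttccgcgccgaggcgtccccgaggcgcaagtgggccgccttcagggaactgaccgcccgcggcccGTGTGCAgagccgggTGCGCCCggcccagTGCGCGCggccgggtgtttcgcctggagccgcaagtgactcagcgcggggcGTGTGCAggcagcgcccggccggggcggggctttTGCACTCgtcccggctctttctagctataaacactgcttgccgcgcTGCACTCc
MT1H: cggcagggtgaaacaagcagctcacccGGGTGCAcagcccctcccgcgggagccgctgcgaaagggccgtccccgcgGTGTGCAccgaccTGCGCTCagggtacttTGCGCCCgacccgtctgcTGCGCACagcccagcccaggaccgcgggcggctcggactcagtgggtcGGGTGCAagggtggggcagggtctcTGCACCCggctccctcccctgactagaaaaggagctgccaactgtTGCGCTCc
MT1X: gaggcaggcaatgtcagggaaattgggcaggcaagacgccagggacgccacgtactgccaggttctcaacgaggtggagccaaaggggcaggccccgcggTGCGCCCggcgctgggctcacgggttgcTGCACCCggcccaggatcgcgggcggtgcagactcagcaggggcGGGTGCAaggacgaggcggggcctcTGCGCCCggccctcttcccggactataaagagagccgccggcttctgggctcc
SLC30A1: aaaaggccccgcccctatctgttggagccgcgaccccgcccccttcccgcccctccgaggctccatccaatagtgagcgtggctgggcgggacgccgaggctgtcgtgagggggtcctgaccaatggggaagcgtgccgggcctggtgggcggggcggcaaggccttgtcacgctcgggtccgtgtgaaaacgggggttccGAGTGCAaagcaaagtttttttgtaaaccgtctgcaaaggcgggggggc
The MT1H window held 8 matches, the MT2A window 7 and the MT1X window 4, with no overlap between matches. The SLC30A1 window held 1. Of the 35116 promoter windows of this length, 24.8% held at least 1 match, 0.37% held at least 4 and 0.0313% held at least 7. A match is a description of the letters and was not measured as a binding site.

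Levels below are log2 intensities after background correction and quantile normalization, and a difference of 1 on that scale is a doubling. Levels of different genes cannot be compared, because each probe has its own brightness. Array medians of the raw signal ran from 88.5 to 115 for SUDHL2 and SUDHL6 and from 88.3 to 118 for the panel, and replicate arrays correlated at 0.982 to 0.995. For arrays, their number limits the precision. As a check of the cell type, 5 of 7 B-cell, 5 of 7 myeloid, 2 of 7 T and NK cell and 3 of 7 stromal and epithelial markers passed the filter. Of all probes with 1 gene symbol, 60.4% did. In the same order, 4, 1, 0 and 0 markers were above background on all 42 arrays, and 1, 2, 2 and 2 on none. Only 6 of the 7 B-cell markers had a probe. Replicate 3 of every DMSO and OTX015 group of SUDHL2 was on slide 1, apart from the other SUDHL2 arrays, so results that rest on them are also given without them. The metallothionein 1 genes are near-identical copies, and the probe sequences needed to check whether one probe also reads a neighbour were not used here, so the assignment of signal to single MT1 genes is uncertain. In these samples fewer cells of a kind and less RNA per cell cannot be told apart.

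Metallothionein levels were higher in untreated SUDHL2 than in untreated SUDHL6. Of the 4 members above background in both lines, 4 were higher and passed the test, beside 52.5% of all 13393 genes called in either direction, and since these levels were known when the genes were chosen, the count is not independent support. MT2A, a metallothionein expressed in most human tissues, read 9.61, 9.64 and 9.52 in SUDHL2 and 5.56, 5.64 and 5.57 in SUDHL6. The arrays of the lines were far apart, by 4.0 ± 0.29 (SE), a 16.03-fold difference. The SUDHL6 signals were dim, at 107 to 115 before correction, and the size of the gap depends on the processing. The authors' processed values were 9.50, 9.53 and 9.42 in SUDHL2 and 6.80, 6.83 and 6.80 in SUDHL6, a smaller gap. MT1X read 9.37, 9.51 and 9.48 in SUDHL2 and 7.28, 7.20 and 7.29 in SUDHL6. That is a difference of 2.20 ± 0.27. MT1F read 8.10, 8.00 and 8.01 in SUDHL2 and 7.10, 7.26 and 6.50 in SUDHL6, a difference of 1.08 ± 0.24. MT1E was higher by 0.62 ± 0.18. MT1G and MT1H were above background on all 3 untreated SUDHL2 arrays and on none of SUDHL6, so their folds are bounds. MT1G was at least 4.03-fold higher and MT1H at least 1.88-fold higher, and because both passed the filter only through SUDHL2, these are descriptions with no test. Over all 7 SUDHL6 groups, MT1H was above background on 0 of 21 arrays and MT1G on 1. Marker genes differed between the untreated lines too. In SUDHL2, 5 of 5 B-cell markers tested were lower, with a median of -1.31, as were 2 of 5 myeloid markers (25.4% of all genes). Higher were 2 of 3 stromal and epithelial markers, EPCAM and DCN, and 1 of 2 T and NK cell markers, CD3D (27% of all genes). Their part in the metallothionein difference was not tested.

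**Figure D1:**
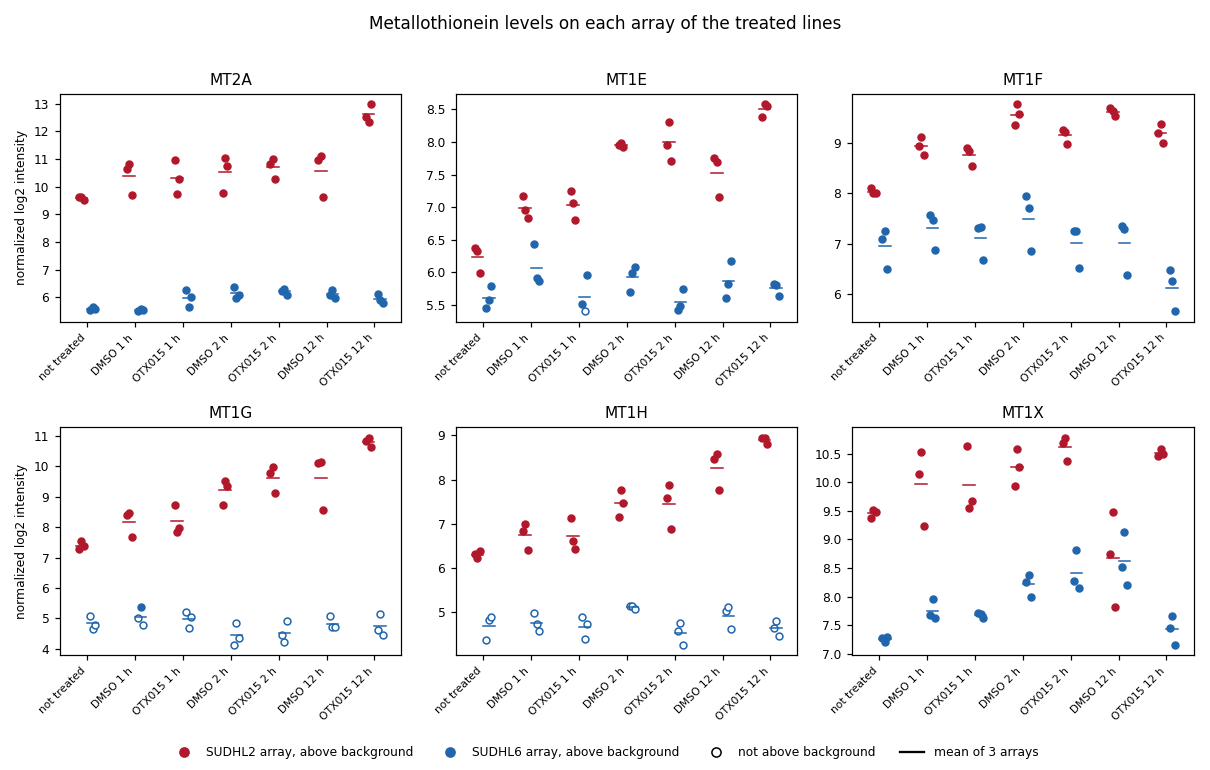
Normalized log2 intensity of the 6 measured members on each array of SUDHL2 and SUDHL6, by treatment and hour, with a bar at the mean of 3 arrays. Vertical scales differ between genes. MT2A in SUDHL2 lies between 9.52 and 9.64 not treated and between 12.35 and 12.98 after OTX015 for 12 h, while MT1G and MT1H in SUDHL6 stay at background.

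DMSO alone went with higher metallothionein levels in SUDHL2, against the 3 untreated arrays of the same set. The members were chosen with these contrasts known, so the values that follow are a description, and no p is given. The 3 hours share the same untreated arrays. The untreated panel array of this line, SU-DHL-2 on another slide, also lay above those arrays for all 6 members. Its excess over their mean ran from 0.36 for MT1X to 2.04 for MT1E. Untreated readings of this line thus differed between sets by amounts that reach the DMSO differences of some members, such as MT1E. MT1E, one of the copper and zinc binding MT1 proteins, read 6.38, 6.32 and 5.99 not treated. It read 7.17, 6.95 and 6.84 at 1 h, 7.95, 7.98 and 7.92 at 2 h, and 7.75, 7.69 and 7.15 at 12 h. Every DMSO array lay above every untreated array at each hour, by 0.75 ± 0.18, 1.72 ± 0.18 and 1.30 ± 0.18 (SE, 3 against 3 arrays). These sizes depend on the background correction: they were 0.44, 1.14 and 0.83 without it, and 0.40, 1.03 and 0.74 in the authors' processed values. MT1F read 8.10, 8.00 and 8.01 not treated. After DMSO it read 8.94, 9.12 and 8.75 at 1 h, 9.35, 9.77 and 9.57 at 2 h, and 9.69, 9.63 and 9.52 at 12 h. MT1F also stood apart at every hour, by 0.90 ± 0.24, 1.52 ± 0.24 and 1.58 ± 0.24.

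MT1G read 7.28, 7.53 and 7.38 not treated, and after DMSO 8.40, 8.48 and 7.66 at 1 h, 8.74, 9.53 and 9.36 at 2 h and 10.12, 10.13 and 8.55 at 12 h. Its groups did not overlap at any hour, and its mean difference was larger at each later hour, 0.78 ± 0.29, 1.81 ± 0.29 and 2.20 ± 0.29. Without the 12 h array on slide 1, the MT1G difference at 12 h was 2.73. MT1H read 6.30, 6.21 and 6.38 not treated, and 6.83, 7.0 and 6.40 at 1 h, 7.15, 7.76 and 7.48 at 2 h and 8.46, 8.58 and 7.77 at 12 h. MT1H kept the same order, with differences of 0.45 ± 0.21, 1.17 ± 0.21 and 1.97 ± 0.21, although its lowest 1 h array lay just above the highest untreated one. These sizes depend on the processing too. At 2 and 12 h MT1H stood at 0.74 and 1.37 without background correction, and at 0.67 and 1.24 in the authors' processed values. In those authors' values MT1G stood at 1.40 and 1.76 at 2 and 12 h.

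MT2A and MT1X had wider spreads and another course. MT2A read 9.61, 9.64 and 9.52 not treated, and 10.64, 10.83 and 9.70 at 1 h, 9.76, 11.04 and 10.76 at 2 h and 10.95, 11.10 and 9.63 at 12 h. Its difference from not treated was 0.80 ± 0.29, 0.93 ± 0.29 and 0.97 ± 0.29, and at 12 h the lowest DMSO array fell within the untreated range. MT1X read 9.37, 9.51 and 9.48 not treated, and 10.13, 10.53 and 9.24 at 1 h, 9.94, 10.57 and 10.26 at 2 h and 8.75, 9.48 and 7.82 at 12 h. MT1X was apart from not treated at 2 h, by 0.80 ± 0.27, overlapped at 1 h, and at 12 h had a mean 0.78 ± 0.27 below not treated, with overlap. Without the 12 h array on slide 1, the MT1X difference at 12 h was -0.34 and that of MT2A was 1.43.

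Across the 6 members, the median difference in SUDHL2 was 0.77 at 1 h, 1.34 at 2 h and 1.44 at 12 h, beside 0.01 over all genes at each of these hours. Non-overlapping and higher were 5 of 6 at 1 h (16.1% of all genes were so), 6 of 6 at 2 h (17.4%) and 4 of 6 at 12 h (21.3%). By the model's call, 2 of 6 were higher at 1 h (3.51% of all genes), 6 at 2 h (7.91%), and 5 at 12 h (12.1%) with MT1X lower (10.8%), a call lost with the slide as a block, at -0.55 ± 0.25. Since the rule used these contrasts, nothing is read from those shares. With the slide as a block, 5 members were called at 1 h, and 5 also without the slide 1 arrays. Within slide 3, which holds 2 untreated and 2 DMSO arrays at each hour, the median member difference was 0.94, 1.36 and 1.61.

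In SUDHL6, of the 4 members above background, MT1X had the largest difference after DMSO at each hour. MT1X read 7.28, 7.20 and 7.29 not treated, and 7.68, 7.96 and 7.63 at 1 h, 8.25, 8.38 and 8.00 at 2 h and 8.53, 9.13 and 8.20 at 12 h. The DMSO arrays lay above the untreated ones at every hour, by 0.50 ± 0.27, 0.95 ± 0.27 and 1.36 ± 0.27. The untreated panel array of this line, SU-DHL-6 on another slide, also read MT1X 1.13 above the mean of these untreated arrays. MT2A read 5.56, 5.64 and 5.57 not treated and 6.37, 5.98 and 6.10 at 2 h, with 6.07, 6.27 and 5.97 at 12 h. Those groups did not overlap either, at 0.56 ± 0.29 and 0.51 ± 0.29, and at 1 h the difference was -0.05 ± 0.29. MT1E ranged over 5.45 to 5.80 not treated and 5.87 to 6.43 at 1 h, and its differences were 0.46 ± 0.18, 0.32 ± 0.18 and 0.26 ± 0.18. MT1F overlapped at all 3 hours, at 0.35 ± 0.24, 0.55 ± 0.24 and 0.06 ± 0.24, and its replicate 3 was the lowest array in 7 of 7 SUDHL6 groups. MT1G and MT1H were not above background in these groups, except for 1 MT1G array at 1 h, and give no fold. Of the 4 members measured in SUDHL6, 2 lay apart and higher at each hour (7.37%, 11.1% and 15.1% of all genes), and by call 0 were higher at 1 h (1.33% of all genes), 1 at 2 h (5.3%) and 1 at 12 h (8.71%), MT1X both times.

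Mean SUDHL2 metallothionein levels after OTX015 lay near those after DMSO at 1 and 2 h, with slides that differed, and 5 of the 6 were higher at 12 h. These contrasts use the DMSO arrays already described, so a low DMSO array enters both comparisons with opposite sign. At 1 h the 6 differences from DMSO ran from -0.17 ± 0.24 for MT1F to 0.05 ± 0.18 for MT1E, all with overlap. At 2 h MT1F, at 9.26, 9.23 and 8.98 against 9.35, 9.77 and 9.57 in DMSO, lay apart and lower, at -0.41 ± 0.24 (8.78% of all genes), and the other 5 overlapped with differences from -0.02 to 0.42. No member was called at either hour, where 0.187% and 3.3% of all genes were. Within slide 3, with 1 OTX015 array against 2 of DMSO, the median member difference was -0.44 at 1 h and 0.47 at 2 h. Within slide 1, with 1 on each side, it was 0.17 and -0.37. OTX015 replicate 1 at both hours was on slide 6, which held no SUDHL2 DMSO array.

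At 12 h MT2A in SUDHL2 read 12.53, 12.35 and 12.98 after OTX015, against 10.95, 11.10 and 9.63 after DMSO. Its groups stood apart by 2.06 ± 0.29, a 4.17-fold difference. MT1X read 10.46, 10.57 and 10.49 after OTX015 against 8.75, 9.48 and 7.82, a difference of 1.83 ± 0.27, and its OTX015 arrays also lay above the untreated range of 9.37 to 9.51. MT1G read 10.82, 10.95 and 10.63 against 10.12, 10.13 and 8.55, apart by 1.20 ± 0.29. MT1E read 8.38, 8.58 and 8.55 against 7.75, 7.69 and 7.15, apart by 0.97 ± 0.18. MT1H read 8.95, 8.93 and 8.81 against 8.46, 8.58 and 7.77, apart by 0.63 ± 0.21. MT1F was the exception, at 9.19, 9.38 and 9.0 against 9.69, 9.63 and 9.52 after DMSO. It lay apart on the lower side, by -0.42 ± 0.24.

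The median difference over the 6 was 1.09 at 12 h, beside 0.02 over all genes. Apart and higher were 5 of 6 (23.2% of all genes) and apart and lower 1 of 6 (21.5%), and 5 were called higher (17.7%). The DMSO array on slide 1 was the lowest of its group for all 6 members at 12 h. Without that array the median was 0.73 and 3 members were called, and MT2A differed by 1.60, MT1X by 1.40 and MT1G by 0.67. Within slide 3, with 2 arrays on each side, the median was 0.76, with MT2A at 1.42 and MT1F at -0.38. Within slide 1, with 1 on each side, it was 1.73.

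**Figure D2:**
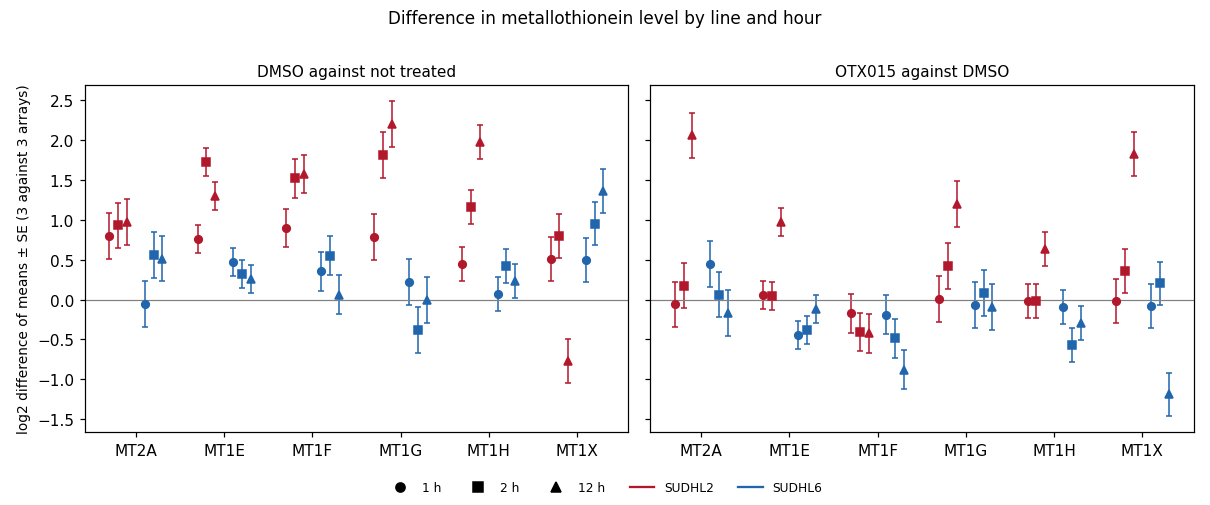
Log2 difference of group means ± SE for each member, by line and hour, for DMSO against not treated (left) and OTX015 against DMSO (right). At 12 h MT2A and MT1X in SUDHL2 stand 2.06 and 1.83 above DMSO, and MT1X in SUDHL6 stands at -1.19.

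In SUDHL6 OTX015 went with lower MT1X and MT1F at 12 h. MT1X read 7.46, 7.66 and 7.16 after OTX015 against 8.53, 9.13 and 8.20 after DMSO. The groups stood apart by -1.19 ± 0.27, which put MT1X close to its untreated range of 7.20 to 7.29. MT1F read 6.48, 6.26 and 5.66 against 7.35, 7.30 and 6.38, a difference of -0.88 ± 0.24 with overlap. That difference was -0.52 without background correction and -0.47 in the authors' processed values. MT2A, at 6.13, 5.89 and 5.78, and MT1E, at 5.83, 5.81 and 5.63, overlapped their DMSO arrays, at -0.17 ± 0.29 and -0.12 ± 0.18. Of the 4 measured members, 1 was apart and lower (17.2% of all genes) and 2 were called lower (12.9%). At 1 h MT2A was apart and higher by 0.44 ± 0.29 (4.9% of all genes), and at 2 h no measured member was apart. None was called at 1 or 2 h, where 0.806% and 6.01% of all genes were. With the replicate numbers as a block, which pair the arrays in this contrast, MT1F was called at 2 h, at -0.49 ± 0.11. At 12 h this block gave -0.88 ± 0.11 for MT1F and -1.19 ± 0.23 for MT1X.

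The responses were also set against each other as a difference between lines, SUDHL2 minus SUDHL6, given as a description. In it MT1X stood at -2.13 ± 0.39 for DMSO at 12 h and at 3.02 ± 0.39 for OTX015 at 12 h. Both values use the low SUDHL2 DMSO array on slide 1. Without that array the SUDHL2 part moved from -0.78 to -0.34 for DMSO and from 1.83 to 1.40 for OTX015. The differences between lines were not refitted without it. At 12 h the MT1X arrays were apart and higher after OTX015 in SUDHL2 and apart and lower in SUDHL6. MT2A differed between lines by 2.23 ± 0.41 for OTX015 at 12 h. Of the 4 members measured in both lines, the model called 0, 1 and 3 for DMSO at 1, 2 and 12 h, where 1.48%, 6.75% and 6.02% of all genes were called, and 0, 0 and 3 for OTX015, where 0.0373%, 0.642% and 12.3% were. The rule used these contrasts, so nothing is read from the counts.

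Among the other genes of zinc handling, the clearest change with DMSO was in SLC30A1, which rose at 1 and 2 h in both lines. SLC30A1 in SUDHL2 read 6.21, 6.17 and 5.97 not treated, 7.39, 7.11 and 7.15 after 1 h of DMSO, 8.23, 8.30 and 8.47 after 2 h, and 6.21, 6.0 and 6.06 after 12 h. It rose by 1.10 ± 0.18 at 1 h (limma, adjusted p = 0.000119) and by 2.21 ± 0.18 at 2 h (limma, adjusted p = 1.42e-11), and stood at -0.03 ± 0.18 at 12 h (limma, adjusted p = 0.949). In SUDHL6 it read 5.15, 5.16 and 5.49 not treated, with 1 of those 3 arrays above background, 6.74, 6.94 and 6.51 at 1 h, 7.80, 7.83 and 6.75 at 2 h and 5.64, 5.91 and 5.88 at 12 h. It rose by 1.46 ± 0.18 at 1 h (limma, adjusted p = 5.24e-07) and 2.19 ± 0.18 at 2 h (limma, adjusted p = 1.04e-11). At 12 h it was 0.54 ± 0.18 higher (limma, adjusted p = 0.0368). That call was lost without background correction, at 0.22, with an offset of 50, at 0.31, in the authors' processed values, at 0.22, and when replicate 1 or 2 of the untreated arrays or replicate 2 or 3 of the DMSO arrays was left out, at 0.48 to 0.50. The difference between lines, SUDHL2 minus SUDHL6, was -0.36 ± 0.26, 0.02 ± 0.26 and -0.57 ± 0.26 and did not pass at 1, 2 or 12 h (limma, adjusted p = 0.578, 0.980 and 0.221).

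In SUDHL2 the SLC30A1 level was lower after OTX015 than after DMSO at 1 and 2 h. It read 6.57, 6.43 and 6.34 at 1 h and 7.15, 7.20 and 7.12 at 2 h, where every array was below the DMSO arrays. It fell by 1.18 at 2 h (± 0.18, limma, adjusted p = 3.53e-05), and at 1 h stood at -0.77 ± 0.18 (limma, adjusted p = 0.0661). The 1 h difference was called with the slide as a block (limma, adjusted p = 0.0394), with the replicate number as a block (limma, adjusted p = 0.0117) and with its detected probes averaged (limma, adjusted p = 0.0437). At 12 h the difference was 0.05 ± 0.18 in SUDHL2 (limma, adjusted p = 0.881) and 0.45 ± 0.18 in SUDHL6 (limma, adjusted p = 0.0691), and with the replicate block, which pairs the arrays there, SUDHL6 was called (limma, adjusted p = 0.0357). In SUDHL6 the 2 h difference was -0.18 ± 0.18 (limma, adjusted p = 0.716), and the difference between lines at 2 h did not pass (-1.0 ± 0.26, limma, adjusted p = 0.0617). MTF1 rose with DMSO at 2 h, by 0.70 ± 0.14 in SUDHL2 and 0.55 ± 0.14 in SUDHL6, and at 12 h by 0.63 ± 0.14 and 0.57 ± 0.14 (limma, adjusted p from 0.000409 to 0.00611). The SUDHL6 call at 2 h was lost without DMSO replicate 1, at 0.40.

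**Figure D3:**
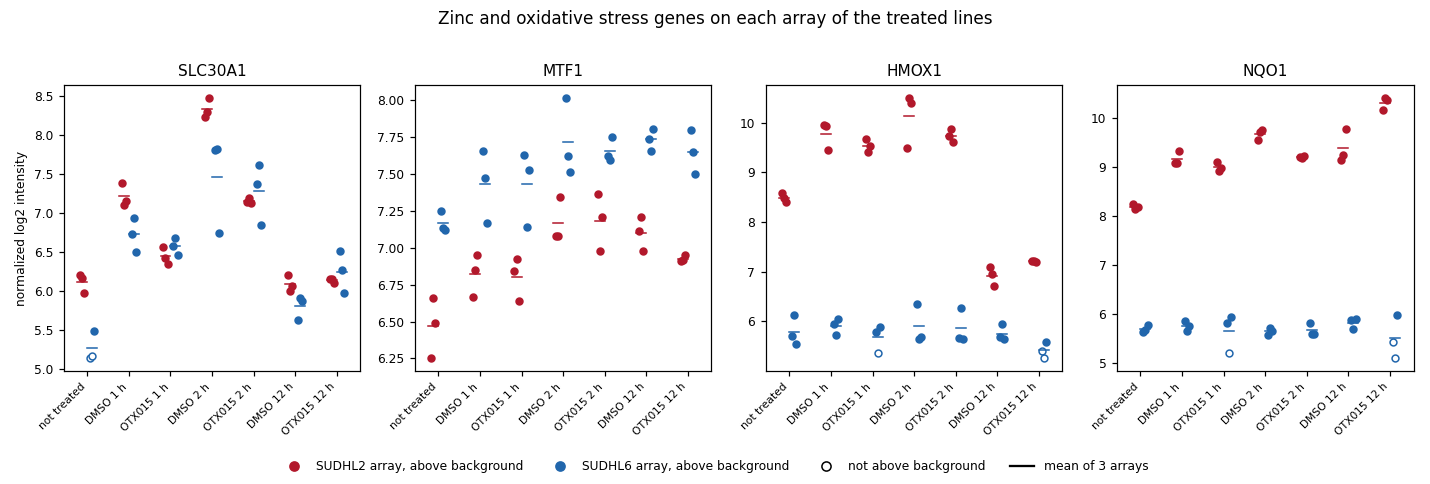
Normalized log2 intensity of SLC30A1, MTF1, HMOX1 and NQO1 on each array of SUDHL2 and SUDHL6, with a bar at the mean of 3 arrays. Vertical scales differ between genes. SLC30A1 in SUDHL2 runs from 5.97 to 6.21 not treated and from 8.23 to 8.47 after 2 h of DMSO.

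Of the 21 zinc genes tested, out of 26 listed, 1 was higher and 0 lower at 1 h of DMSO in each line, where 3.51% of all genes were higher in SUDHL2 and 1.33% in SUDHL6. At 2 h 2 were higher and 0 lower in each line, beside 7.91% and 5.3% of all genes higher, so these counts lie near the background. At 12 h 6 were higher and 0 lower in each line, beside 12.1% and 8.71%. The zinc importers SLC39A14 and SLC39A3 were among the 6 in both lines at 12 h, at 0.80 and 0.68 in SUDHL2 and 0.70 and 0.55 in SUDHL6. The median of the list stayed within 0.03 to 0.19 in all 6 DMSO comparisons, beside -0.03 to 0.01 over all genes. With OTX015 at 12 h 1 was higher and 6 lower in SUDHL2, and 4 higher and 4 lower in SUDHL6, where 17.7% of all genes were higher and 16.4% lower in SUDHL2 and 13.9% and 12.9% in SUDHL6. TMEM163, a zinc transporter, fell by 1.01 in SUDHL2 (limma, adjusted p = 7.1e-07) and fell by 1.59 in SUDHL6 (limma, adjusted p = 4.8e-11).

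Of the 13 copper handling genes, 0 passed at 1 h of DMSO in SUDHL2 or SUDHL6, where 6.11% and 1.78% of all genes did. At 12 h of DMSO 3 were higher and 1 lower in SUDHL2, and 5 higher and 0 lower in SUDHL6, beside 12.1% and 8.71% of all genes higher. Among the higher was SCO2, a copper chaperone of cytochrome c oxidase, up by 1.26 and 0.96. With OTX015 at 12 h CCS, the copper chaperone of superoxide dismutase, rose by 1.04 in SUDHL2 (limma, adjusted p = 4.1e-08) and by 1.01 in SUDHL6 (limma, adjusted p = 1.1e-07), and SCO2 fell by 0.61 and 0.53.

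Of the 16 NRF2 and oxidative stress genes tested, out of 22 listed, 6 were higher and 0 lower at 1 h of DMSO in SUDHL2, and 9 were higher and 0 lower at 2 h, beside 3.51% and 7.91% of all genes higher. NRF2 is the transcription factor that drives genes of the response to oxidants. HMOX1, which breaks down heme, rose by 1.28 at 1 h (limma, adjusted p = 3.8e-05) and by 1.64 at 2 h. NQO1, a quinone reductase, rose by 0.97 at 1 h and 1.48 at 2 h, and SQSTM1, an autophagy receptor, by 1.06 and 1.30. The NQO1 call at 1 h was lost when its detected probes were averaged, at 0.43 (limma, adjusted p = 0.0568). At 12 h 1 was higher and 4 lower, beside 12.1% and 10.8% of all genes. HMOX1 stood at -1.57 and GCLM, a subunit of glutathione synthesis, at -1.08, while NQO1 was 1.19 higher. In SUDHL6 0 passed at 1 h, where 1.78% of all genes did. At 2 h 3 were higher and 1 lower there, beside 5.3% and 6.41%. With OTX015 at 12 h in SUDHL2 4 were higher and 2 lower, beside 17.7% and 16.4% of all genes. Those counts lie near the background, with NQO1 among the higher at 0.92.

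Of 9 glucocorticoid receptor genes tested, 2 and 1 were higher after 1 and 2 h of DMSO in SUDHL2 (3.51% and 7.91% of all genes). In SUDHL6 1 and 2 were (1.33% and 5.3%), and 0 were lower in either line. List medians were -0.09 and -0.17 in SUDHL2 and 0.11 and -0.07 in SUDHL6. TSC22D3, a glucocorticoid-induced leucine zipper gene, rose by 1.23 and 1.36 in SUDHL2 and by 0.95 and 1.31 in SUDHL6. Its SUDHL6 call at 1 h was lost without DMSO replicate 1, at 0.82. Of 10 heat shock genes, 0 were higher and 2 lower at 1 h of DMSO in SUDHL2 (3.51% and 2.6% of all genes), where HSPH1 fell by 0.92. At 2 h 1 was higher and 4 lower (7.91% and 5.97%), and at 12 h 2 were higher and 0 lower (12.1% and 10.8%). In SUDHL6 1, 2 and 4 were higher at 1, 2 and 12 h and 0 lower, beside 1.33%, 5.3% and 8.71% of all genes higher. Of the neighbours of the cluster on chromosome 16, 5 of 9 were tested. OGFOD1 rose with DMSO at 12 h in both lines, by 0.78 and 0.58, and with OTX015 at 12 h in SUDHL2 1 neighbour was higher and 3 lower, where 17.7% and 16.4% of all genes were.

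The untreated panel showed wide differences in metallothionein level between lines. MT1E, MT1X and MT2A were above background in 22 of 22 lines, MT1F in 19, MT1H in 8 and MT1G in 6. MT2A ran from 5.58 in SU-DHL-6 through a median of 7.39 to 13.05 in SU-DHL-7, a range of 7.47 that was 6.21 without background correction and 6.07 in the authors' processed values. OCI-Ly3 followed at 11.77, SU-DHL-2 at 10.42 and OCI-Ly10 at 9.60. With 1 array a line, gaps were set against the spread of the replicated arrays, a residual SD of 0.41 for MT2A. Of the 21 gaps between neighbours in that order, 2 exceeded 1.15, the gaps below SU-DHL-7 and below OCI-Ly3, so most neighbours do not differ beyond that spread.

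MT1X ran from 5.91 in U-2932 through a median of 8.23 to 11.89 in OCI-Ly19, with OCI-Ly3 at 11.26 and SU-DHL-7 at 11.19. These 3 lines formed the top, and the gap below SU-DHL-7 was the single one beyond the spread. MT1F ran from 4.91 in SU-DHL-4, where it was not above background, through a median of 6.85 to 11.08 in OCI-Ly3. OCI-Ly19 at 10.53, Karpas-422 at 9.66 and SU-DHL-7 at 9.60 came next, with 1 gap beyond the spread. MT1E was at 11.05 in OCI-Ly3, then 8.28 in SU-DHL-2 and 8.24 in SU-DHL-7, with a median of 5.87 and a low of 5.37 in SU-DHL-5. OCI-Ly3 stood alone for MT1E, and 3 of the 21 gaps exceeded the spread. MT1G was highest in SU-DHL-2, at 9.28, with SU-DHL-7 at 7.69, OCI-Ly10 at 6.79 and OCI-Ly3 at 6.63. MT1H was highest in OCI-Ly3, at 8.82, with SU-DHL-2 at 7.93, OCI-Ly19 at 7.07 and SU-DHL-7 at 6.50. The lowest lines for MT1F, MT1G and MT1H were not above background, so no range is given as a fold. All 6 members were above background together in 6 lines, 5 in 2, 4 in 11 and 3 in 3.

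**Figure D4:**
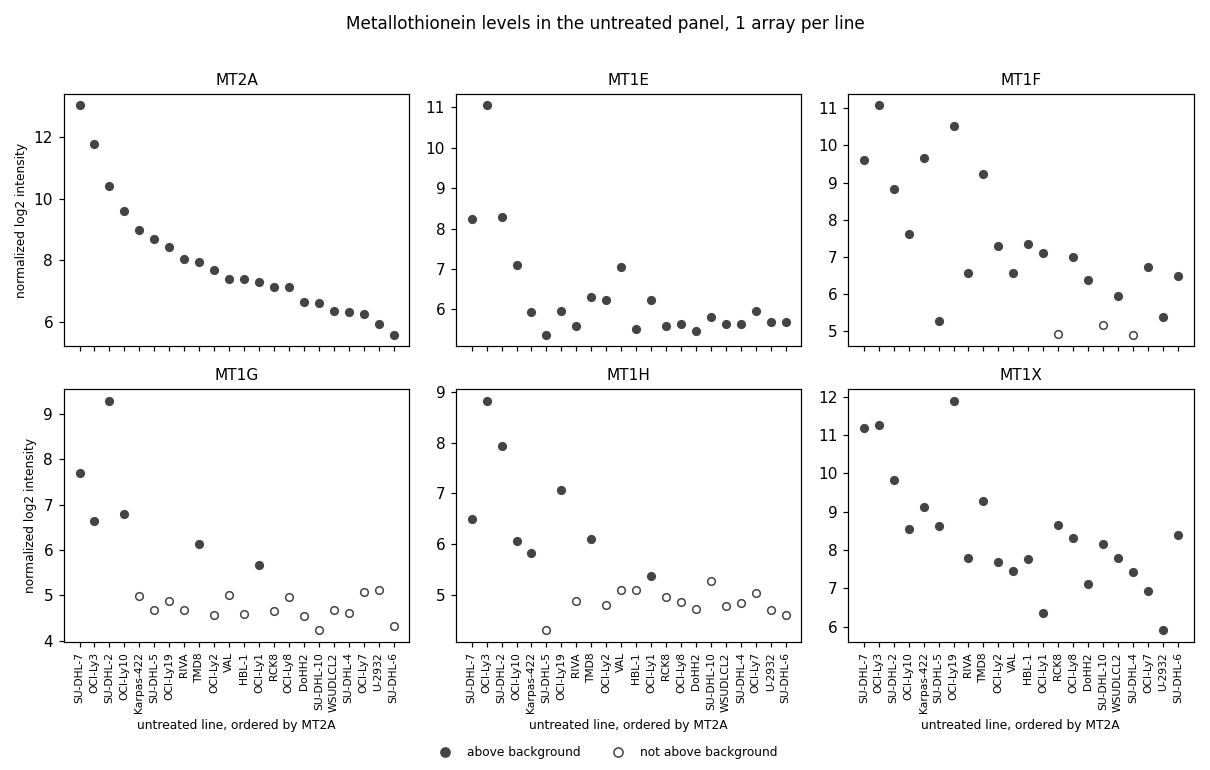
Normalized log2 intensity of the 6 measured members in the 22 untreated lines, 1 array each, in the order of MT2A. Vertical scales differ between genes. SU-DHL-7, OCI-Ly3 and SU-DHL-2 are the 3 highest for MT2A, and MT1E stands at 11.05 in OCI-Ly3.

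Lines high for one member tended to be high for others, though not evenly. Over the 15 pairs of members and the 22 lines, Pearson's r ran from 0.474 for MT1G with MT1X to 0.856 for MT1E with MT1H, with a median of 0.753, and Spearman's rho from 0.326 to 0.761. For each pair, the 2 lines farthest from the median of its alphabetically first member were then left out, and r ran from 0.299 to 0.851. Lines extreme only for the other member stayed in. These are descriptions, since the probes share arrays and may share signal. OCI-Ly19 showed the unevenness, with MT1X at 11.89 and MT1F at 10.53 but MT1E at 5.95. The array labelled Karpas-422 needs care: its column in the authors' processed values correlated best with the signals of SU-DHL-4, at 0.936 against 0.864 for its own signals, while the other 63 of 64 columns paired with their own array. There MT2A was 8.99 from the signals and 11.56 in the authors' values.

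The panel also measured SUDHL2 and SUDHL6 a second time, as SU-DHL-2 and SU-DHL-6. The SU-DHL-2 array lay above the range of the 3 untreated SUDHL2 arrays for all 6 members, by 2.04 over their mean for MT1E, 1.89 for MT1G, 1.64 for MT1H, 0.83 for MT2A, 0.79 for MT1F and 0.36 for MT1X. In SU-DHL-6, MT1X was 1.13 higher and MT2A -0.01 from the untreated mean. The panel arrays of these lines were on slide 4 and the untreated arrays of SUDHL2 and SUDHL6 were on other slides, so slide and set cannot be told apart.

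The genes outside the family most like the members were taken by Pearson's r with their mean z-score. Over the 22 panel lines these were GRAMD1B at 0.800, ZBTB33 at 0.793, IVNS1ABP at 0.755, PTPDC1 at 0.748 and ARHGAP4 at 0.746. Over the 14 group means of the treated lines they were NQO1 at 0.988, IL17RA at 0.981, RHOC at 0.980, BAD at 0.978 and CSRP1 at 0.978, where the level gap between the lines enters every value.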

How the data were processed

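Per the labels, RNA was isolated with an RNeasy kit and labelled with the TotalPrep kit. The deposited signal table holds 1 linear intensity per probe and array, not background-subtracted. The deposited processed table holds the authors' log2 values, made by steps that neither labels nor headers state. No detection p-values came with the signals, which the plan had assumed. A probe was instead called above background where its p was below 0.01 under the mirrored lower side of that array's background mode, and kept if so on at least 3 of 42 arrays, leaving 26033 of 47231 probes. Of all probes, 30113 had 1 gene symbol, 8 several and 17110 none. Signals were corrected with normexp (offset 16), normalized by quantiles over 64 arrays and log2-transformed. Each gene took its detected probe with the highest mean, giving 13393 genes. The second probes of MT1E and MT1H were above background on 1 and 2 of 42 arrays.

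limma 3.58.1 in R 4.3.3 fitted 1 mean per group (lmFit, eBayes with an intensity trend), with 2-sided tests and Benjamini-Hochberg adjustment over all genes of a contrast at 0.05. A bound on a fold takes, on arrays not above background, either the measured value or, if higher, the dimmest detected probe. The fit was tested on simulated data. Members, gene lists and comparisons were chosen with earlier results of these data known. Named list genes are up to 3 per list and contrast, the largest among those called, and SLC30A1 and MTF1 are followed throughout. The likeness rule took 5 genes. Replicate numbers were checked by correlating deviations from group means: every pair was above 0.1 only for OTX015 against DMSO in SUDHL6 (0.123 to 0.438), where they were taken to pair the arrays from the data alone. Alternatives were other background corrections and scalings, the authors' values, filters, probe averaging, slide and replicate blocks, and leaving out arrays. Leaving out slide 1 was chosen after seeing the data.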

Additional observations from a re-analysis of the deposited data

Results flagged for a closer look

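The following differences between the lines, SUDHL2 minus SUDHL6, were past the threshold of the model's interaction term. The members were chosen with these contrasts known, so the values are a description. For DMSO at 2 h they were MT1E at 1.40 and MT1G at 2.20. For DMSO at 12 h they were MT1E at 1.04, MT1F at 1.52, MT1G at 2.21, MT1H at 1.74 and MT1X at -2.13. For OTX015 at 12 h they were MT1E at 1.09, MT1G at 1.29, MT1H at 0.92, MT1X at 3.02 and MT2A at 2.23. MT1G and MT1H were at background in SUDHL6 at these hours, so a change there could not be measured, and their values do not show that the lines responded differently. The DMSO arrays enter both families of differences, and SUDHL2 replicate 3 at 12 h of DMSO, on slide 1, read lowest of its group for each member.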

How the results depend on the processing

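Groups of 3 arrays limit the precision, and MT1G and MT1H were at background in SUDHL6. The 4 members measured in both lines stayed called in SUDHL2 against SUDHL6 not treated with each array left out. No called member difference changed sign under any alternative run. Among 1284 recomputed single-member differences, 42 were marked as moved by more than their residual SD. Those of SUDHL2 against SUDHL6 not treated were checked only for sign and call. Changes in size there, such as that of MT2A in the authors' values, are not in the 42. The cause of the changes that follow was not tested.

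With the authors' processed values the median member difference for DMSO at 2 h in SUDHL2 was 0.955, and 0 members were called for DMSO at 2 h in SUDHL6. With 75th percentile scaling 1 member was called for OTX015 at 2 h in SUDHL6. With the slide as a block 5 members were called for DMSO at 1 h in SUDHL2, and 2 each for DMSO and for OTX015 at 2 h in SUDHL6, while SLC30A1 at 12 h of DMSO in SUDHL2 turned from -0.03 to 0.0104. The 2 for OTX015 were MT1F and MT1H, and MT1H was at background on every SUDHL6 array, so its call compares background readings. Leaving out slide 1, chosen after seeing the data, gave 5 members for DMSO at 1 h and 8 genes for OTX015 at 1 h in SUDHL2, against 25. With the replicate block 47 genes were called for OTX015 at 1 h in SUDHL2, and 2 members for DMSO at 2 h in SUDHL6, 1 for OTX015 at 2 h in SUDHL2 and 1 for OTX015 at 2 h in SUDHL6. MT1F at 12 h of OTX015 in SUDHL2 was also called lower with the replicate block and with the slide block. Where the numbers pair the arrays, OTX015 against DMSO in SUDHL6, the block changed no other member call. In the other contrasts not every same-numbered pair correlated over 0.1, and the numbers were not taken to pair the arrays, although same-numbered arrays often shared a slide.

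The log2 range over panel lines of MT1E, MT1F, MT1G, MT1H, MT1X and MT2A was 4.33, 4.52, 3.0, 2.57, 4.92 and 6.21 without background correction. It was 4.84, 5.10, 3.64, 3.18, 5.35 and 6.70 with an offset of 50, and 4.16, 4.38, 2.89, 2.50, 4.68 and 6.07 in the authors' values, against 5.68, 6.17, 5.05, 4.51, 5.98 and 7.47. The lowest lines of MT1F, MT1G and MT1H were not above background, so their ranges compare intensities and are not measured folds.

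With 1 array left out, genes called ranged over 445 to 660 for DMSO at 1 h in SUDHL2, 153 to 221 for DMSO at 1 h in SUDHL6, 15 to 21 and 290 to 348 for OTX015 at 1 and 2 h in SUDHL2, and 64 to 90 for OTX015 at 1 h in SUDHL6. Members called ranged over 0 to 4 for DMSO at 1 h and 3 to 5 for OTX015 at 12 h in SUDHL2, and in SUDHL6 over 0 to 2 for DMSO at 2 h, 0 to 1 for OTX015 at 2 h and 1 to 2 for OTX015 at 12 h. SLC30A1 ranged over -0.0995 to 0.0183 for DMSO at 12 h in SUDHL2 and -0.534 to 0.0372 for OTX015 at 2 h in SUDHL6.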

Other observations

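Of the other metallothionein genes with a probe, MT1B, MT1M, MT1L, MT1IP, MT3 and MT4, 0 of 6 passed the filter on dim probes. MT1B was above background on 0 of 42 arrays of the treated lines and in 2 of 22 panel lines, at 6.90 in SU-DHL-7, the line with the highest MT2A level, and at 5.35 on the array labelled Karpas-422.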
